A study of Mus musculus with 24 samples.

Results

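The genotype by ketogenic diet interaction in the liver is the response of 3xTg-AD mice to the diet minus the response of wild-type mice to the same diet, taken gene by gene as a log2 difference of differences. Its members were chosen by their labels: 16 of the 24 sequenced livers, 4 on each diet in each genotype, which leaves out the 8 livers of mice fed medium-chain triglycerides. All 13281 genes that passed a filter on low counts, of 55335 in the table, were tested. Wild-type (WT) mice were of the B6129SF2/J strain. The 3xTg-AD (3xTg) line, a model of Alzheimer's disease, carries transgenes for mutant human APP and tau and a mutant presenilin gene. All mice were female and 3 months old at the start, and ate their diet for 6 months. Carbohydrate made up 70% of the control diet, beside 20% long-chain triglyceride and 10% protein (4.1 kcal/g). The ketogenic diet (KD) was free of carbohydrate, with 90% long-chain triglyceride and 10% protein (6.7 kcal/g). The 2 lines differ in their transgenes and in their breeding history, and these cannot be told apart here. Each library is from the liver of 1 mouse, so p-values measure the spread between mice.

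As background, a diet without carbohydrate lowers insulin and shifts the liver from making fat to burning it. The transcription factors SREBP-1c and ChREBP drive the genes of glycolysis and fatty acid synthesis when carbohydrate and insulin are high. PPARA, a nuclear receptor activated by fatty acids, drives the genes of fatty acid oxidation and ketone body synthesis. An interaction above 0 means that the log2 response of a gene in 3xTg exceeded that in WT, and one below 0 the reverse. The same value of the interaction can come from a difference on the control diet, on the KD, or on both. Levels or differences on both diets are therefore given for the genes where a genotype difference on 1 diet is described.

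In the interaction 1 gene passed an adjusted p of 0.05 in edgeR's quasi-likelihood test, 0.00753% of the genes tested. It was Arl4d, with an interaction above 0. An unadjusted p under 0.05 was met by 1939 genes, or 14.6%, of which 1042 (7.85%) had an interaction above 0 and 897 (6.75%) below. At an adjusted p under 0.10 there were 95 genes, 52 above 0 and 43 below. The diet itself changed 86 genes in WT (0.648%, 48 or 0.361% higher and 38 or 0.286% lower) and 716 in 3xTg (5.39%, 378 or 2.85% higher and 338 or 2.54% lower). The median standard error of a log2 difference was 0.32 for the interaction against 0.23 for the response of either genotype. Half-widths of the 95% interval were under 1 for 10147 genes (76.4%) and under 0.5 for 3285 (24.7%). Between genotypes, 247 genes (1.86%) differed on the control diet and 1128 (8.49%) on the KD. A larger number of called genes in 3xTg is not itself a difference between genotypes, which only the interaction tests.

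**Figure D1:**
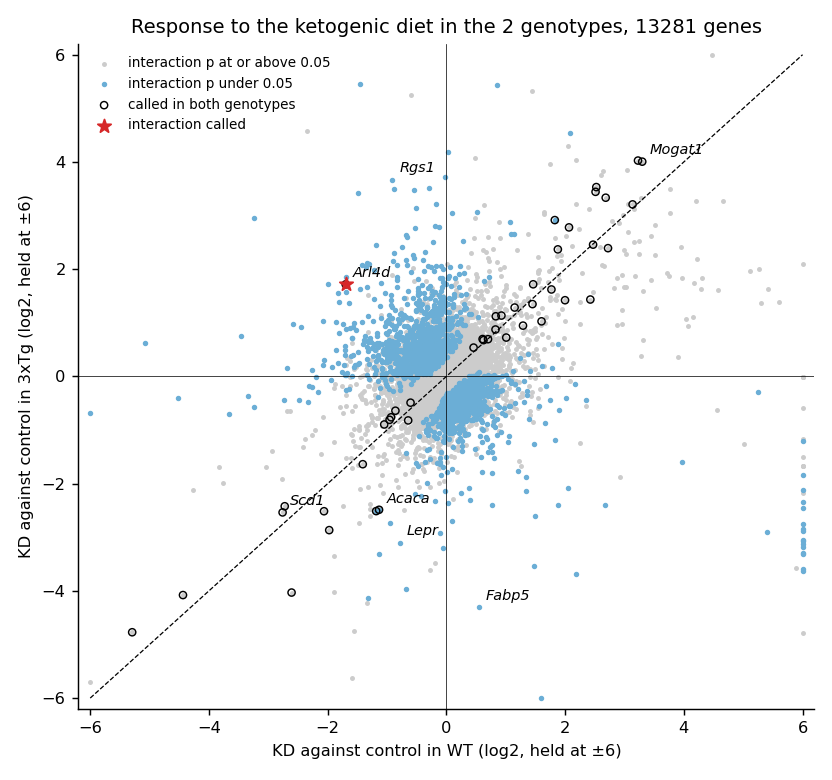
The response to the KD in WT (horizontal axis) and 3xTg (vertical axis), as log2 differences from the control diet relative to the median of all genes, for 13281 genes, with values beyond 6 drawn at 6. The dashed line marks equal responses. Arl4d, the 1 gene called in the interaction, lies at -1.70 in WT and 1.72 in 3xTg, while Mogat1 and Scd1, called in both genotypes, had interactions of 0.71 and 0.23.

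Several libraries carried transcripts of other cells, and some library measures moved with the groups. Transcripts of the exocrine pancreas, summed over the marker list as CPM, the counts of a gene scaled to a common library total, came to 1127, 17838, 9.13 and 5335 in WT KD livers 1 to 4, against at most 33.2 in the other 12. Neutrophil markers summed to 82.1, 180.1, 140.1 and 21.3 CPM in 3xTg KD livers and 14.2 to 17.9 in 3xTg control livers. In WT they summed to 8.48 to 26.2 CPM in control and 6.57 to 44.9 in KD livers. Transcripts of the mitochondrial genome took 6.11 to 7.37% of gene counts in 3xTg KD livers, 6.54 to 14.1% in 3xTg control livers, 14.9, 15.99, 15.3 and 8.80% in WT KD livers and 12.8, 13.001, 8.23 and 7.84% in WT control livers. Neat1, a nuclear RNA, was at 10.5 to 18.8 CPM in 3xTg KD livers, 4.98 to 6.62 in 3xTg control, 7.27, 3.93, 21.7 and 41.7 in WT control and 3.58 to 6.74 in WT KD livers. WT control livers 3 and 4 had more Neat1 and a lower mitochondrial share than WT control livers 1 and 2. Hepatocyte markers summed to 180120.0 to 209010.0 CPM in WT control, 162340.0 to 195800.0 in WT KD, 175730.0 to 240000.0 in 3xTg control and 143030.0 to 175650.0 in 3xTg KD livers. The diets did not overlap in 3xTg (exact two-sided permutation p = 0.0286) and overlapped in WT (p = 0.543 by the same exact test). Over 40 exact two-sided permutation tests of library measures the smallest p, 0.0286, is the smallest that 4 against 4 can give, and its adjusted value was 0.114. In 3xTg it was also reached by neutrophil, macrophage, stellate cell and cholangiocyte sums, Neat1, Xist, the scaling factor and the share of counts naming no gene. Stellate sums were 811 to 852 CPM on the KD and 585 to 733 on control, and cholangiocyte sums 50.7 to 102 and 35.8 to 44.1. In WT none of these measures reached it, and 1 other did. The part of these measures in the results was not tested, except where values without a library are given.

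**Figure D2:**
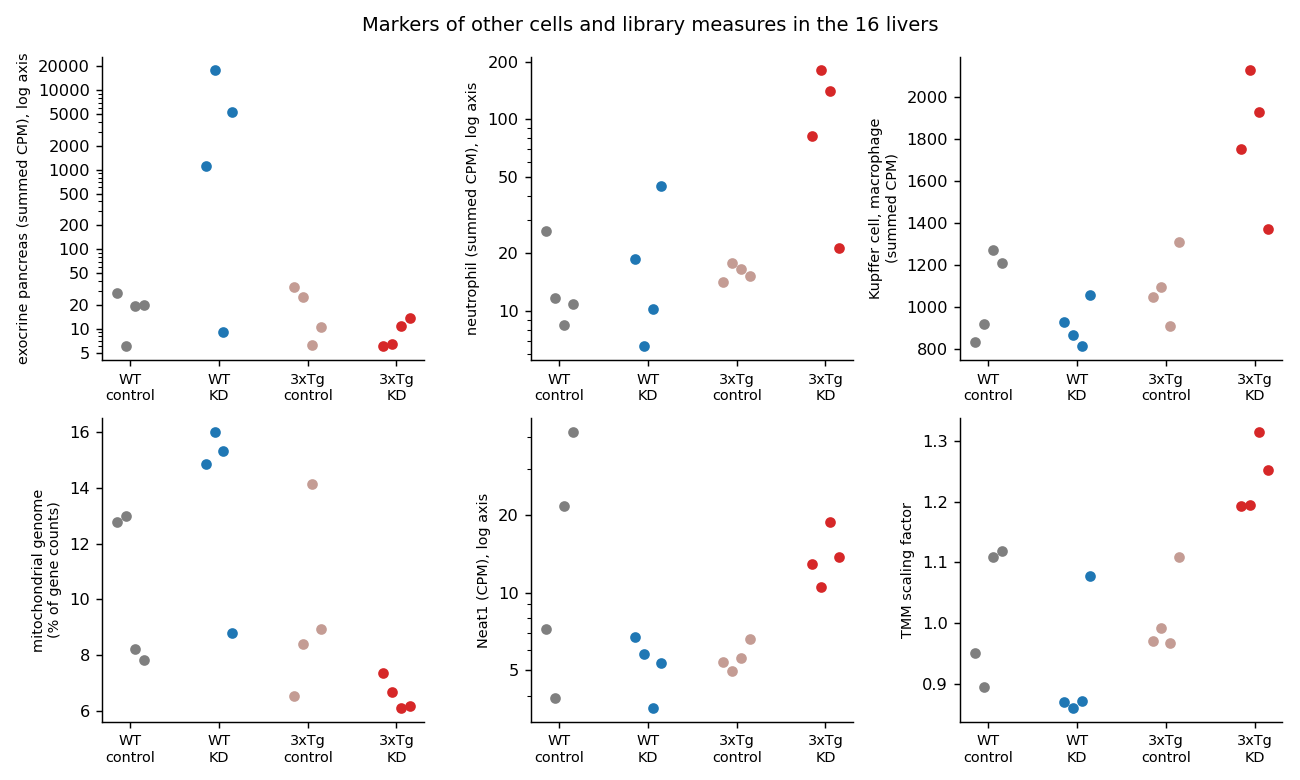
Summed CPM of pancreas, neutrophil and macrophage markers, the share of gene counts from the mitochondrial genome, Neat1 and the scaling factor computed by TMM, for each of 16 livers. Each point is 1 liver, in the order of its replicate number from left to right. Pancreas transcripts stand at 1127 CPM or more in 3 of 4 WT KD livers, and the scaling factor lies between 1.19 and 1.32 in the 3xTg KD livers.

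Arl4d encodes an ARF-like small GTPase, a membrane-bound switch that recruits regulators of the actin cytoskeleton and of membrane traffic. It lies on chromosome 11 (GRCm38, chr11:101665541-101667832, plus strand). Its promoter is shown because Arl4d was the 1 gene called. The 250 bases before its start in RefSeq (GRCm38.p6, chr11:101665291-101665540, plus strand) are, with the cAMP response element in capitals:
Arl4d: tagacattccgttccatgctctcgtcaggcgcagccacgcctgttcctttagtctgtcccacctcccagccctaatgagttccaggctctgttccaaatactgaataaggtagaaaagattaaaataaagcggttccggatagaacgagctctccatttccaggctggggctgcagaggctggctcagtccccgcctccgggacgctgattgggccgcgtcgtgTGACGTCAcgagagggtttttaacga
The capitals mark TGACGTCA, the palindromic cAMP response element, which CREB family factors bind and which is the same on both strands. Its first base is position 225 of the window. It was found in 1.55% of 32817 promoter windows of this length. Of the 7 motifs searched on both strands, 1 other was present, the CCAAT box (CCAAT), which 33.8% of windows hold. A match is a description of the letters, and binding was not measured.

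Arl4d stood at 12.3, 11.7, 17.9 and 34.4 CPM in WT control livers 1 to 4 and at 6.30, 6.90, 4.84 and 5.53 in WT KD livers. In 3xTg it stood at 6.49, 6.09, 5.63 and 6.18 CPM in control livers and 21.2, 17.7, 28.1 and 13.9 in KD livers. The diets did not overlap in either genotype, and the order was opposite, with control above KD in WT and KD above control in 3xTg. The WT control group was the most spread, with liver 4 the highest of all 16. Arl4d fell in WT (-1.70 ± 0.40, log2 ± SE, n = 4 per group, adjusted p = 0.0472 in edgeR) and rose in 3xTg (1.72 ± 0.39, adjusted p = 0.012). The interaction was 3.42 ± 0.56 with a 95% interval of 2.26 to 4.57 (adjusted p = 0.0404). Between genotypes, Arl4d was lower in 3xTg on the control diet (-1.65 ± 0.39, adjusted p = 0.0281) and higher on the KD (1.78 ± 0.40, adjusted p = 0.00793).

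The call of Arl4d depended on single livers. With each of the 16 livers left out in turn the interaction lay between 2.97 and 3.59, and it stayed called in 4 of the 16 fits, those without 3xTg KD liver 4, WT control liver 1, WT control liver 2 or WT KD liver 4. In the other 12 the adjusted p ran from 0.0512 to 0.15. Without the libraries with pancreas transcripts the interaction was 3.66. That value rests on 1 WT KD liver and is no support for the call. Without WT control livers 3 and 4 it was 2.76 (adjusted p = 0.387 in edgeR, the highest of all alternatives). Of its relatives, Arl4a had an interaction of 0.76 ± 0.42 and Arl4c of 0.08 ± 0.34, neither called, and Arl4a was at 0.50 without WT control liver 4. Among 15 tested ARF-like GTPases, 1 (Arl4d itself) had an unadjusted p under 0.05 above 0 and 1 below, against 7.85% and 6.75% of all genes. Their median interaction was 0.08, against 0.00 over all genes. The sign of that median turned without 3xTg control liver 4 (-0.0088) and without the libraries with pancreas transcripts (-0.12). On the medium-chain triglyceride diet, which was set against the same control livers, Arl4d was at 9.55 ± 5.26 CPM (SD, n = 4) in WT and 7.85 ± 4.54 in 3xTg, with an interaction of 1.36 ± 0.55 that was not called. No gene was called in that second interaction, in which 287 genes (2.16%) had an unadjusted p under 0.05 in edgeR.

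**Figure D3:**
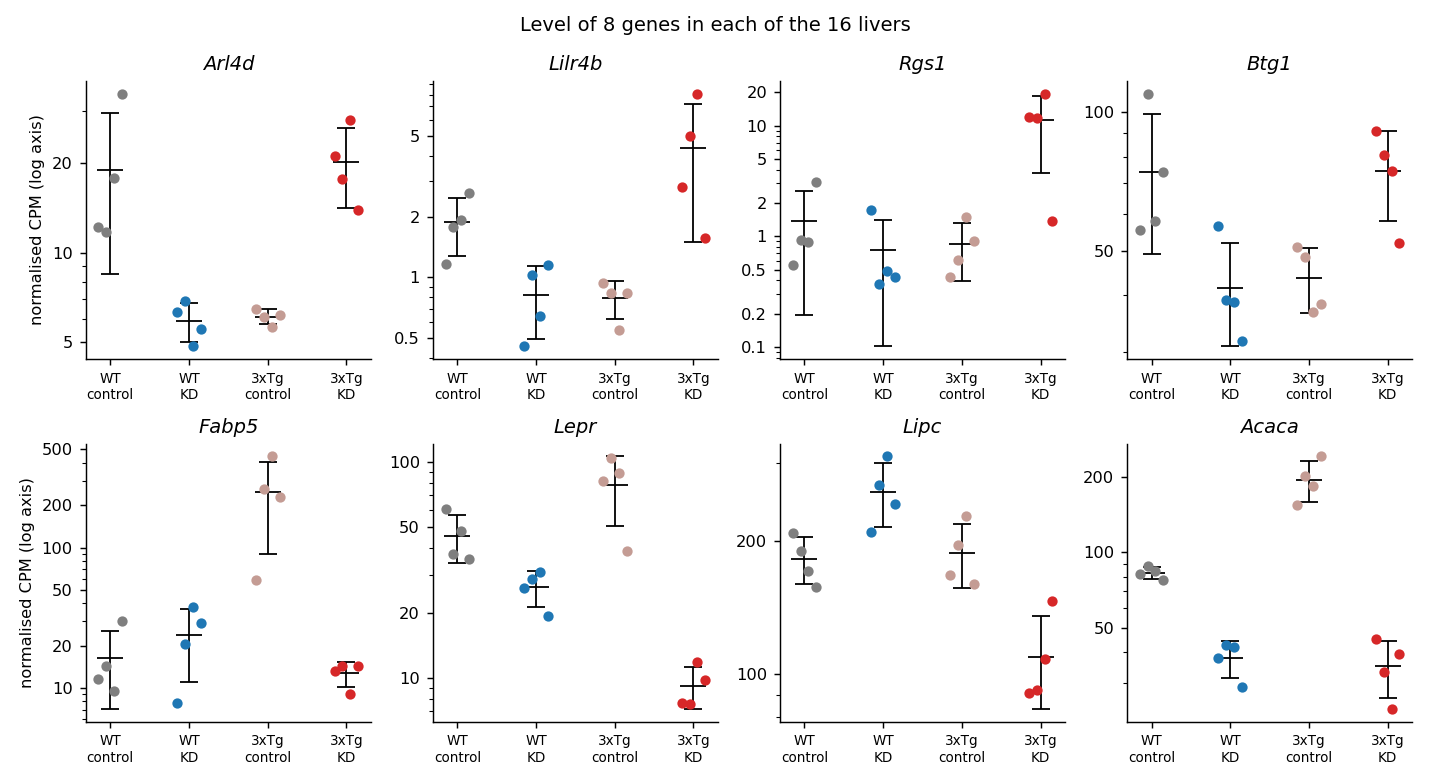
Normalised CPM (log axes) of Arl4d, Lilr4b, Rgs1, Btg1, Fabp5, Lepr, Lipc and Acaca in 16 livers, with points for livers in the order of replicate number and bars for the mean ± SD of 4. Arl4d is at 13.9 CPM or more in the 3xTg KD livers and at 6.49 or less in the 3xTg control livers. The Fabp5 and Acaca panels show the 3xTg control livers highest.

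The genes next in order with an interaction above 0 fell short of the adjusted threshold. Lilr4b, a leukocyte immunoglobulin-like receptor of myeloid cells, was at 1.17, 1.77, 1.93 and 2.62 CPM in WT control, 0.456, 1.03, 0.645 and 1.15 in WT KD, 0.939, 0.837, 0.547 and 0.834 in 3xTg control and 2.80, 4.97, 8.10 and 1.57 in 3xTg KD livers. Its groups did not overlap in either genotype, with KD lower in WT and higher in 3xTg. The interaction was 3.64 ± 0.63 (adjusted p = 0.0513 in edgeR), and in 3xTg alone it rose by 2.45 ± 0.44 (adjusted p = 0.0023). Lilr4b has a close paralog, Lilrb4a, and how the counting split reads between them is not known. Rgs1, a regulator of G-protein signalling in leukocytes, was at 11.9, 11.8, 19.4 and 1.38 CPM in 3xTg KD livers and at 0.427 to 1.49 in 3xTg control livers, with 0.547 to 3.12 and 0.373 to 1.73 in WT control and KD livers. The first 3 of the 3xTg KD livers stood far above all others, and liver 4 lay within the range of 3xTg control livers. The interaction of Rgs1 was 4.58 ± 0.95 (adjusted p = 0.0584). Cd83, a surface protein of activated dendritic and B cells, had 2.25 ± 0.47 (adjusted p = 0.0584).

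Neutrophil marker sums were high in 3xTg KD livers 1 to 3, the livers in which Rgs1 was high, and the part of these cells in the result was not tested. Of 14 neutrophil markers, 6 were tested, and all 6 had an interaction above 0, with a median of 2.35. At an unadjusted p under 0.05 there were 4, all above 0, against 7.85% of all genes. Members that pass through the group where they are high had to differ, so this is a description. S100a9, a calcium-binding protein abundant in neutrophils, was at 4.05, 20.4, 25.04 and 1.82 CPM in 3xTg KD livers and 1.60 to 2.11 in 3xTg control livers. Livers 2 and 3 of the 3xTg KD group held most of it, and liver 4 was within the control range. Its interaction was 2.99 ± 0.89, and that of S100a8, its partner, was 2.95 ± 0.93 (adjusted p = 0.131 and 0.145). Both rose in 3xTg (2.80 ± 0.58 and 3.04 ± 0.63). Without 3xTg KD livers 2 and 3 the median of the neutrophil list was 0.75, with S100a9 at 0.87 and S100a8 at 0.29. Of 22 tested Kupffer cell and macrophage markers, 19 lay above 0 and 4 had an unadjusted p under 0.05 above 0, against 7.85% of all genes. Their median was 0.39, which was 0.09 without those 2 livers, 0.25 without liver 2 alone and 0.22 without WT control livers 3 and 4. Their summed level was 1369 to 2127 CPM in 3xTg KD, 905 to 1308 in 3xTg control, 811 to 1056 in WT KD and 832 to 1271 in WT control livers. Lyz2, the lysozyme of macrophages and neutrophils, was at 42.01, 47.1, 85.8 and 119 CPM in WT control and 42.3, 27.9, 33.5 and 47.2 in WT KD livers, and at 58.5, 60.1, 40.96 and 79.4 and 128, 163, 128 and 115 in 3xTg control and KD livers. It was higher in every 3xTg KD liver than in any 3xTg control liver, and overlapped between diets in WT. The interaction of Lyz2 was 2.11 ± 0.51 and that of Ctss, a cathepsin of antigen-presenting cells, 0.94 ± 0.33 (adjusted p = 0.0874 and 0.177). Lyz2 was at 1.41 without WT control livers 3 and 4, and Ctss at 0.48 without 3xTg KD livers 2 and 3. In bulk tissue, more cells of a type and more RNA per cell cannot be told apart.

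Btg1, an antiproliferative partner of the RNA deadenylation complex, was at 55.4, 109.8, 57.9 and 74.001 CPM in WT control, 56.4, 38.998, 38.6 and 31.8 in WT KD, 50.9, 48.4, 36.7 and 38.3 in 3xTg control and 90.999, 80.8, 74.5 and 51.9 in 3xTg KD livers. KD livers were higher without overlap in 3xTg, and in WT 3 of 4 KD livers were below every control liver. The interaction was 1.61 ± 0.31 (adjusted p = 0.0535 in edgeR), and Btg1 rose in 3xTg (0.76 ± 0.22). Gpn3, which helps carry RNA polymerase II to the nucleus, had an interaction of 1.19 ± 0.23, and Ncapd3, a condensin subunit, one of 1.57 ± 0.31 (adjusted p = 0.0535 and 0.0535).

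Other genes with a small p and an interaction above 0 have no list in common. Nars2, the mitochondrial asparaginyl-tRNA synthetase, was at 13.2, 13.6, 13.4 and 16.04 CPM in WT control and 10.6, 11.4, 10.9 and 11.1 in WT KD livers, and at 9.65, 9.89, 11.5 and 9.66 and 17.8, 13.4, 14.2 and 13.97 in 3xTg. Neither genotype's diets overlapped, and the directions were opposite. Cox15, an enzyme of heme A synthesis for cytochrome oxidase, showed the same opposite order. It ranged over 22.2 to 24.9 CPM in WT control and 12.8 to 19.8 in WT KD livers, and over 14.5 to 18.3 in 3xTg control and 21.5 to 25.4 in 3xTg KD livers. The interactions were 0.89 ± 0.18 for Nars2 and 0.92 ± 0.20 for Cox15 (adjusted p = 0.0535 and 0.0674). Etfdh, which passes electrons from fatty acid oxidation to ubiquinone, was at 254 to 363 CPM in WT control and 282 to 335 in WT KD livers, and at 188 to 243 and 334 to 436 in 3xTg. The WT diets overlapped and the 3xTg diets did not, and Etfdh rose in 3xTg (0.88 ± 0.13). Its interaction was 0.83 ± 0.18, beside 1.77 ± 0.37 for Prkab2, a subunit of the energy sensor AMPK (adjusted p = 0.0637 and 0.0637).

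No gene with an interaction below 0 was called, and those with the smallest p included genes of lipid handling and of leptin signalling. Fabp5, a fatty acid-binding protein, was at 58.9, 261, 446 and 228 CPM in 3xTg control livers and 13.2, 14.2, 8.99 and 14.3 in 3xTg KD livers. WT control livers had 11.6, 14.4, 9.44 and 29.8 and WT KD livers 7.76, 20.4, 37.6 and 29.03. The 3xTg control livers stood above all 12 others, and the WT diets overlapped. Fabp5 fell in 3xTg (-4.30 ± 0.72, adjusted p = 0.00151), was higher in 3xTg than in WT on the control diet (3.93 ± 0.71, adjusted p = 0.00228), and had an interaction of -4.84 ± 0.95 (adjusted p = 0.0535). Without the libraries with pancreas transcripts the interaction of Fabp5 was -5.55. That fit represents WT KD by liver 3 alone, the highest of its group at 37.6 CPM, so the value rests on 1 liver.

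Lepr, the leptin receptor, was at 60.4, 37.7, 48.1 and 35.5 CPM in WT control and 26.02, 28.7, 30.96 and 19.3 in WT KD livers, and at 81.3, 104, 89.1 and 38.8 in 3xTg control and 7.62, 7.55, 11.8 and 9.81 in 3xTg KD livers. KD livers were lower without overlap in both genotypes. Lepr fell in 3xTg (-3.10 ± 0.34), the WT response of -0.79 ± 0.32 was not called, and the interaction was -2.31 ± 0.46 (adjusted p = 0.0535). Lipc, hepatic lipase, was at 209, 190.0, 171 and 158 CPM in WT control and 209.5, 269, 311 and 242 in WT KD livers, and at 168, 196, 228 and 160.0 and 90.999, 92.1, 108 and 147 in 3xTg control and KD livers. KD was the higher diet in WT and the lower in 3xTg, without overlap in either. The interaction of Lipc was -1.29 ± 0.26 (adjusted p = 0.0535), and Lipc fell in 3xTg (-0.79 ± 0.18). Chaperone and redox genes with small p each fell in 3xTg. Glrx3, a glutaredoxin, had an interaction of -0.87 ± 0.17, Bag1, a co-chaperone of HSP70, of -1.08 ± 0.22, and Lrpap1, a chaperone of LDL receptor proteins, of -0.95 ± 0.21. Their adjusted p values in edgeR lay between 0.0535 and 0.0803.

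Several genes of fat synthesis fell on the KD in both genotypes, and some of them were higher in 3xTg than in WT on the control diet. Of 24 lipogenesis and desaturation genes, all tested, 7 fell in WT and 13 in 3xTg, against 0.286% and 2.54% of all genes. None of the 24 was called in the interaction. Their median interaction was -0.57, with 7 at an unadjusted p under 0.05, all below 0, against 6.75% of all genes. Acaca, the acetyl-CoA carboxylase that commits carbon to fatty acids, was at 81.6, 87.97, 84.6 and 77.3 CPM in WT control and 37.6, 42.6, 41.8 and 28.9 in WT KD livers, and at 155, 201, 184 and 242 in 3xTg control and 44.9, 33.3, 23.6 and 39.1 in 3xTg KD livers. On the KD the genotypes overlapped, and on the control diet every 3xTg liver was above every WT liver. Acaca was higher in 3xTg on the control diet (1.24 ± 0.25, adjusted p = 0.00645), while the difference on the KD was -0.10 ± 0.25. It fell in WT (-1.13 ± 0.25) and in 3xTg (-2.49 ± 0.26), with an interaction of -1.35 ± 0.35 (adjusted p = 0.105).

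Pklr, liver pyruvate kinase, showed the same order, at 258, 282, 254 and 287 CPM in WT control and 490.5, 592, 597 and 657 in 3xTg control livers, and 69.8, 148, 149 and 109 and 163, 62.7, 64.7 and 122 on the KD. It fell in both genotypes (-1.18 ± 0.27 and -2.51 ± 0.28), with an interaction of -1.33 ± 0.38 (adjusted p = 0.126 in edgeR). Acacb, the carboxylase whose product restrains fatty acid oxidation, fell in 3xTg (-1.52 ± 0.29) and had -0.11 ± 0.29 in WT, with an interaction of -1.40 ± 0.41. Over the list, the median difference of 3xTg from WT was 0.51 on the control diet and 0.08 on the KD. Fasn and Elovl6, fatty acid synthase and an elongase, fell in both genotypes and had interactions of -0.89 ± 0.53 and -1.42 ± 0.75. Fasn was at -0.46 without 3xTg control liver 4. Without 3xTg KD livers 2 and 3 the median of the list was -0.17, with Fasn at -0.32, Elovl6 at -0.92 and Pklr at -0.85. Elovl6 was at -2.30 without WT control livers 3 and 4. Glycolysis and glucose uptake genes had a median of -0.31 over 26 tested. At an unadjusted p under 0.05, 5 lay below 0 and 1 above, against 6.75% and 7.85% of all genes. That median was -0.18 without 3xTg KD liver 2, -0.19 without 3xTg control liver 4 and -0.20 without WT KD liver 4. Slc2a2, the glucose transporter of hepatocytes, had an interaction of -0.77 ± 0.27, or -0.51 without 3xTg KD livers 2 and 3.

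No hallmark gene of the diet was called in the interaction, and the intervals were wide. A panel of ketogenic diet responders, chosen with earlier results of these livers known, had 45 tested genes. Of these 15 were called in WT, 29 in 3xTg and 14 in both. Over all genes 0.648% were called in WT and 5.39% in 3xTg. The 95% interval of the interaction included 0 for 34 of the panel genes, and 11 had an unadjusted p under 0.05, against 14.6% of all genes. Scd1, the stearoyl-CoA desaturase, fell in both genotypes (-2.76 ± 0.54 in WT and -2.54 ± 0.53 in 3xTg), with an interaction interval of -1.25 to 1.71. Pnpla3, a lipase regulated with fat synthesis, also fell in both (-4.44 ± 0.77 and -4.08 ± 0.73), with an interval of -1.88 to 2.61. Intervals this wide do not show that the responses were alike.

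Mogat1, which makes diacylglycerol, rose in both genotypes. It ranged over 0.874 to 1.72 CPM in WT control and 12.04 to 18.2 in WT KD livers, and over 0.391 to 0.913 in 3xTg control and 4.61 to 18.6 in 3xTg KD livers. Neither genotype's diets overlapped, the interaction was 0.71 ± 0.47 and its interval -0.26 to 1.68. Without 3xTg KD liver 1 it was 0.28, and without 3xTg KD livers 2 and 3 it was 1.13. Elovl3, an elongase of very long chains, rose in both genotypes (3.14 ± 0.60 and 3.21 ± 0.60), with an interval of -1.61 to 1.76. Pex11a, a peroxisome proliferation factor and PPARA target, rose in both (1.15 ± 0.23 and 1.28 ± 0.23), with an interval of -0.54 to 0.81. Ppara itself had the tightest of these intervals, -0.40 to 0.30, and Cyp4a10, a microsomal fatty acid hydroxylase under PPARA with several similar neighbours, had -1.03 to 1.07. Sema5b, a semaphorin of the panel, was at 0.768, 0.381, 0.234 and 0.625 CPM in 3xTg control and 12.2, 5.33, 11.2 and 19.2 in 3xTg KD livers, and at 2.58, 0.844, 2.76 and 0.499 and 9.59, 9.05, 2.58 and 7.26 in WT. The 3xTg diets did not overlap and the WT diets did. Sema5b rose in 3xTg (4.55 ± 0.57). The interaction of Sema5b was 2.46 ± 0.75 (adjusted p = 0.134 in edgeR). Without the libraries with pancreas transcripts it was 3.88, with WT KD represented by liver 3 alone, the lowest of that group.

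The ketone body and fatty acid oxidation lists had medians near 0 or slightly above it. For comparison, 7.85% of all genes had an unadjusted p under 0.05 above 0 and 6.75% below. The 28 tested PPARA targets of peroxisomes and microsomes had a median interaction of 0.15, with 24 above 0, and 1 at an unadjusted p under 0.05 in each direction. That median was between 0.06 and 0.23 with single livers left out, lowest without 3xTg control liver 4 and highest without 3xTg KD liver 2, and was 0.34 without 3xTg KD livers 2 and 3. It was 0.10 without 3xTg KD liver 1, WT control liver 1 or WT control liver 3. The 19 genes of the carnitine shuttle and mitochondrial beta-oxidation had 0.06, with 11 of 19 above 0, 4 at that p above 0 and 2 below, and the sign of that median turned without 3xTg KD liver 4 (-0.00487). It was 0.15 without 3xTg KD livers 2 and 3. The 8 ketone body genes had 0.24, with 2 above 0 at that p, and 0.16 without WT control liver 2. Acat1, the mitochondrial thiolase of ketone metabolism, rose in 3xTg (1.27 ± 0.19) and had an interaction of 0.95 ± 0.26. For the oxidation enzymes Acadm, Hadh and Crot the interactions were 0.58 ± 0.24, 0.45 ± 0.16 and 0.75 ± 0.29, and all of them rose in 3xTg. Crot was lower in 3xTg on the control diet (-0.82 ± 0.21, adjusted p = 0.0396) and differed by -0.06 ± 0.21 on the KD. Whether the genotypes differed more on one diet than on the other is what the interaction tests, and no gene named here was called.

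Genes of glucose output and of fasting had wide intervals. G6pc, which releases free glucose, was at 291, 285, 384 and 335 CPM in WT control and 282, 172, 214 and 117 in WT KD livers, and at 236, 133, 106 and 97.7 and 343, 232, 401 and 127 in 3xTg. KD livers were lower without overlap in WT, and the diets overlapped in 3xTg. The interaction was 1.66 ± 0.49 (adjusted p = 0.131 in edgeR). Igfbp1, an IGF-binding protein that insulin represses, was at 67.9, 116, 118 and 212 CPM in WT control and 22.9, 10.8, 28.1 and 18.2 in WT KD livers, against 160.0, 39.3, 11.3 and 45.6 and 114, 48.6, 90.7 and 36.1 in 3xTg. The WT diets did not overlap and the 3xTg diets did. Its interaction was 2.85 ± 1.01 (adjusted p = 0.188). Bhmt and Cth, enzymes of methionine metabolism, had 1.82 ± 0.62 and 1.20 ± 0.45, and Cth was at 0.67 without WT control livers 3 and 4.

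Of the lists of secreted liver proteins, complement and apolipoprotein genes lay mostly below 0, acute phase proteins lay on both sides, and none was called. An unadjusted p under 0.05 was met below 0 by 6.75% of all genes and above 0 by 7.85%. Of 35 tested complement and coagulation genes, 34 lay below 0, 14 had an unadjusted p under 0.05, all below 0, and the median was -0.42. In 3xTg 10 of them fell, against 2.54% of all genes, and in WT none was called. F10, coagulation factor X, was at 676, 718, 408 and 487 CPM in WT control, 457, 583, 626 and 582 in WT KD, 816, 836, 716 and 627 in 3xTg control and 324, 399, 318 and 449 in 3xTg KD livers. It fell in 3xTg (-1.02 ± 0.19) without overlap, overlapped between diets in WT, and had an interaction of -0.99 ± 0.26 (adjusted p = 0.109 in edgeR). All 16 tested hepatocyte markers lay below 0, 7 of them at an unadjusted p under 0.05, with a median of -0.62, or -0.39 without WT control livers 3 and 4. The 18 apolipoprotein and lipoprotein assembly genes had a median of -0.60, with 7 at that p below 0 and 1 above. Of 19 acute phase proteins 10 lay above 0, with 2 at that p above and 1 below and a median of 0.21, which was -0.03 without 3xTg KD liver 2 and -0.08 without WT control liver 1. Apoh, a phospholipid-binding apolipoprotein, had -0.97 ± 0.28. Serpina1c and Serpina1a, near-identical copies of the alpha-1 antitrypsin gene whose reads the counting could split, had -1.42 ± 0.37 and -1.05 ± 0.31.

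Most genes of ribosomes and of the respiratory chain also lay below 0, and none was called. Among all genes 6.75% lay below 0 at an unadjusted p under 0.05. Of 47 tested cytosolic ribosomal proteins 40 lay below 0 and 16 had an unadjusted p under 0.05, all below 0, with a median of -0.54. In 3xTg 15 of them fell, against 2.54% of all genes, and none was called in WT. Rpl7, of the large subunit, was at 168, 165, 140.3 and 144 CPM in WT control, 170.3, 205, 167 and 128 in WT KD, 178, 173, 177 and 149 in 3xTg control and 98.7, 105, 96.4 and 101 in 3xTg KD livers. The 3xTg KD livers were the lowest 4 of the 16. Its interaction was -0.88 ± 0.17 (adjusted p = 0.0535 in edgeR). Rplp0, of the ribosomal stalk, was at 127, 59.8, 116 and 103 and 141, 198, 179.6 and 214 CPM in WT control and KD livers, and at 81.3, 69.6, 57.4 and 74.2 and 32.3, 40.8, 42.5 and 48 in 3xTg. KD was the higher diet in WT and the lower in 3xTg, without overlap in either. The interaction of Rplp0 was -1.65 ± 0.35, beside -1.47 ± 0.31 for Rpl26, and ribosomal protein genes have many processed copies that can share reads.

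Of 40 nuclear genes of oxidative phosphorylation 35 lay below 0, with a median of -0.30. At an unadjusted p under 0.05 there were 14, all below 0, against 6.75% of all genes. Uqcrh, a subunit of complex III, was at 139.6 to 155 CPM in 3xTg KD livers, below the 219.8 to 259 of 3xTg control livers. In WT it was at 186 to 251 in control and 181 to 275 in KD livers, which overlapped. It had an interaction of -0.80 ± 0.16, and Ndufb5, of complex I, one of -0.66 ± 0.16 (adjusted p = 0.0584 and 0.0881). Of 13 genes of the mitochondrial genome 7 passed the filter and all 7 lay below 0, with a median of -1.22. At an unadjusted p under 0.05 there were 6, against the same 6.75% of all genes. For mt-Nd1 the interaction was -1.57 ± 0.50 and for mt-Nd6 -1.13 ± 0.38, or -0.73 for mt-Nd6 without WT control livers 3 and 4. The mitochondrial share of the libraries, given above, was lowest in the 3xTg KD livers (6.11 to 7.37%) and 3xTg control liver 1 (6.54%). Within WT it was low in control livers 3 and 4 and in KD liver 4.

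Values of these lists are relative to the median of all genes, and the scaling matters for them. With scaling by library size alone the median interaction over all genes was 0.45 higher, and 985 genes were called, 973 above 0 and 12 below, in place of 1 and 0. The same change of scaling moved the calls of the 3xTg response from 378 higher and 338 lower to 1651 and 111, and those of the WT response from 48 and 38 to 27 and 66. Not centred on that median, the list of nuclear oxidative phosphorylation genes then lay at 0.13, complement and coagulation at 0.02 and ribosomal proteins at -0.07. Others stayed below 0, at -0.79 for genes of the mitochondrial genome, -0.19 for hepatocyte markers, -0.17 for apolipoproteins and -0.16 for lipogenesis. Whether the level of these genes fell or that of others rose in absolute terms cannot be told apart from these counts.

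**Figure D4:**
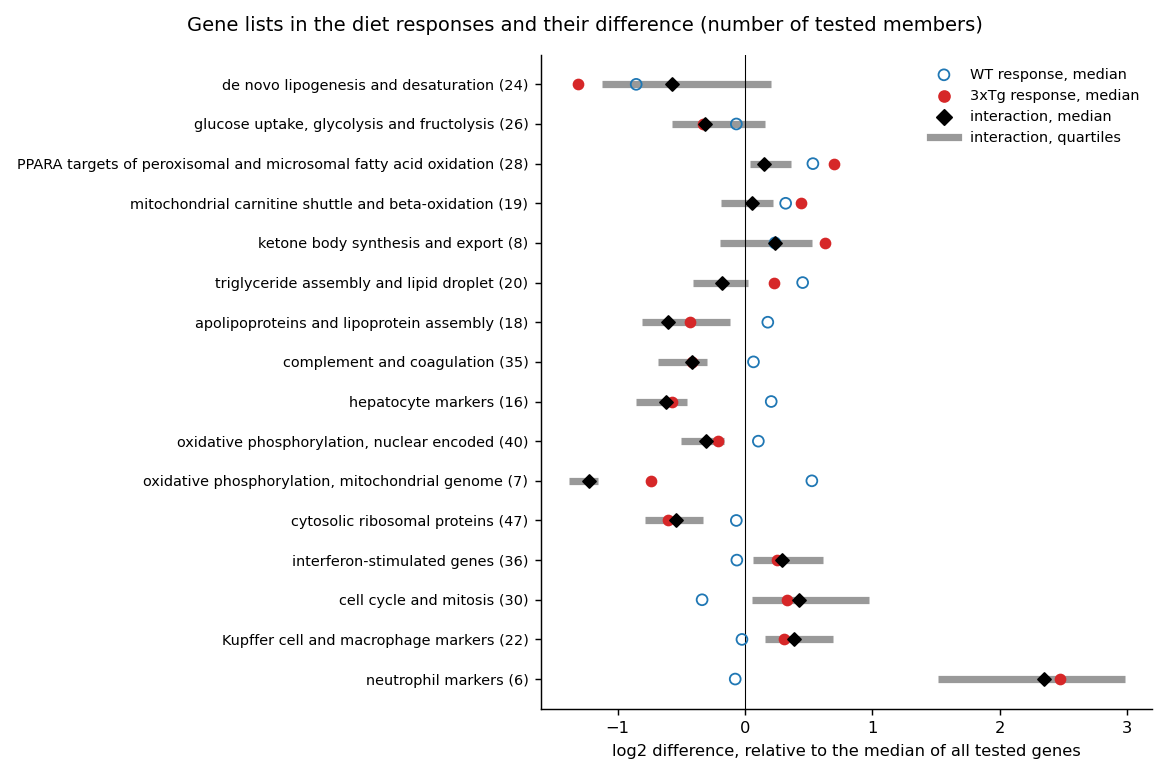
Median log2 response to the KD in WT (open circles) and 3xTg (filled circles), the median interaction (diamonds) and its quartiles (grey bars) for 16 of the 41 gene lists, relative to all genes, with the number of tested members in brackets. The lipogenesis median is -0.85 in WT and -1.31 in 3xTg. Complement, hepatocyte, ribosomal and respiratory lists lie below 0 in the interaction, and neutrophil markers lie furthest above it at 2.35.

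Most interferon-stimulated and cell cycle genes lay above 0, and none was called. Over all genes 7.85% had an unadjusted p under 0.05 above 0 and 6.75% below. The counts at that p in these 2 lists were not far above the share over all genes. Of 36 interferon-stimulated genes 29 lay above 0 and 4 had an unadjusted p under 0.05, with a median of 0.29, which ran from 0.15 without 3xTg KD liver 1 to 0.48 without 3xTg control liver 4 or WT KD liver 4. Oas2, an antiviral RNA sensor, had an interaction of 2.13 ± 0.79 at levels of 0.169 to 1.81 CPM in WT control livers. That of Oas2 was 1.30 without WT control liver 4, 0.83 without WT control livers 3 and 4 and 3.95 without the libraries with pancreas transcripts. Of 30 cell cycle genes 24 lay above 0 and 3 had that p, with a median of 0.42, or 0.26 without WT control liver 4. Mcm4, of the replicative helicase, was at 15.2, 4.98, 12.2 and 10.5 CPM in WT control, 4.84, 5.60, 3.95 and 7.62 in WT KD, 8.28, 7.08, 11.4 and 10.97 in 3xTg control and 14.6, 9.05, 7.01 and 16.2 in 3xTg KD livers, which overlapped within each genotype. Its interaction was 1.26 ± 0.43 (adjusted p = 0.171 in edgeR). Of 25 genes of the drug-sensing receptors CAR and PXR 13 lay above 0 and 12 below, with 4 at an unadjusted p under 0.05 in each direction. The receptor Nr1i3 had 0.87 ± 0.26 and the cytochrome Cyp3a59, one of a family of similar genes, had 1.47 ± 0.36, and Nr1i3 was at 0.53 without WT control livers 3 and 4.

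Of 4 tested nuclear-retained RNAs 2 lay above 0 and 2 below, and none was called. At an unadjusted p under 0.05, 2 lay above and 1 below, against 7.85% and 6.75% of all genes. Neat1 had an interaction of 2.56 ± 0.65 and Xist, the X-inactivation RNA of these female mice, one of 1.61 ± 0.51 (adjusted p = 0.0991 and 0.147 in edgeR). Xist was at 154, 186, 365 and 738 CPM in WT control, 151 to 218 in WT KD, 174 to 228 in 3xTg control and 221 to 366 in 3xTg KD livers. WT control livers 3 and 4 were the 2 highest of WT. Without them the interaction of Neat1 was 1.05 and that of Xist 0.55. Arl4d itself was higher in WT control livers 3 and 4 than in livers 1 and 2.

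A rule that uses no model asks whether the 4 KD livers lie wholly above or below the 4 control livers in each genotype. By it 38 genes were separated in opposite directions, 22 (0.166%) with KD below control in WT and above it in 3xTg, and 16 (0.12%) the other way. In the same direction 175 genes were separated in both genotypes, 105 (0.791%) up and 70 (0.527%) down. With scaling by library size alone the opposite set held 158 genes and the same-direction set 138. Arl4d, Lilr4b, Ncapd3, Nars2 and Cox15 belong to the first opposite pattern. So do C2cd5, which acts in insulin-stimulated glucose transport, Bcl2l2, an inhibitor of apoptosis, and Kdm1b, a histone demethylase, with interactions of 1.01 ± 0.28, 0.90 ± 0.25 and 0.46 ± 0.22. C2cd5 was at 1.52 without the libraries with pancreas transcripts. Lipc, Rplp0, Gtf2ird2, Med29 and Cyp4f13 belong to the second. Gtf2ird2, a factor of the TFII-I family, was at 4.37, 4.14, 4.20 and 3.18 CPM in WT control and 5.75, 5.04, 6.29 and 5.39 in WT KD livers, and at 6.32, 6.77, 6.02 and 4.58 and 3.21, 3.48, 4.14 and 3.21 in 3xTg. Its interaction was -1.26 ± 0.26, beside -1.21 ± 0.33 for Med29, of the Mediator complex, and -1.01 ± 0.28 for Cyp4f13, a fatty acid hydroxylase.

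No gene called in only 1 genotype was called in the interaction, where 1 gene in all was called. Of 42 genes called in WT alone, 22 (52.4%) had an unadjusted interaction p under 0.05, against 14.6% of all genes. Of 672 called in 3xTg alone, 453 (67.4%) had such a p, and 266 had responses of opposite sign in the 2 genotypes. The share of opposite signs over all genes is not given here. Of 44 called in both, 4 had such a p, 1 of them Arl4d, which was also the 1 gene with opposite signs. Since the same livers choose these genes and test them, these shares are a description.

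The exocrine pancreas list gave the lowest median of all, -12.67 over 23 tested genes, with all 23 below 0. These transcripts were high in WT KD livers 1, 2 and 4, and members passed the filter through those livers, so the value is a description of them. The median was -1.02 without the libraries that carry them. Without those libraries WT KD is represented by 1 liver, assumed to vary like the others, and the WT response had 4 called genes in place of 86. The number of genes called in the interaction also rested on single livers. It was 122 without 3xTg KD liver 4, 47 without WT control liver 1, 15 without WT KD liver 4 and 6 without WT control liver 2, and 0 without any 1 of the other 12 livers, where edgeR gave 1445 to 2152 genes with an unadjusted p under 0.05. DESeq2 called 253 genes, Arl4d among them, and edgeR fitted to the 16 livers alone called 55.

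**Figure D5:**
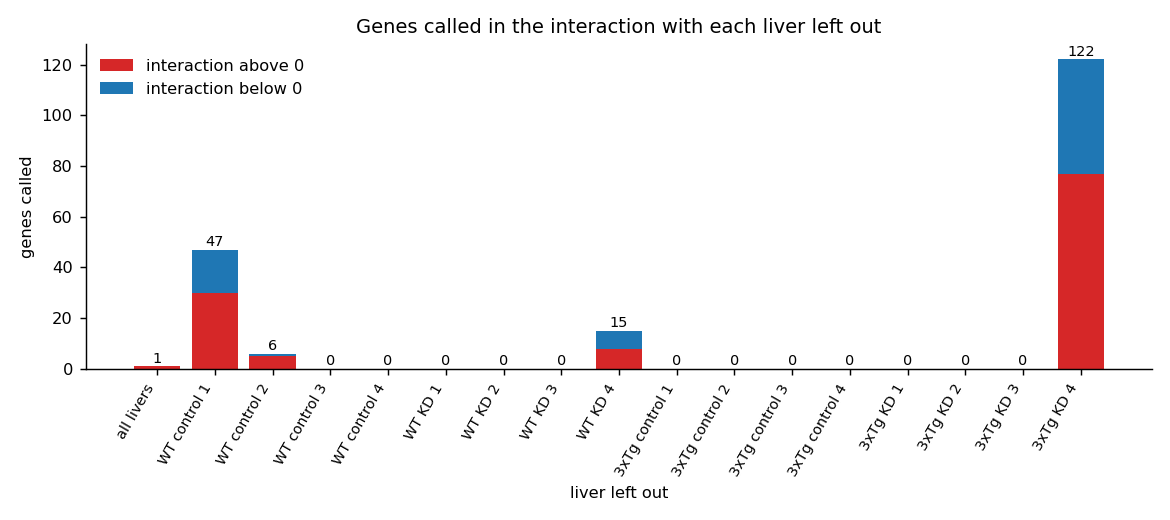
Number of genes called in the interaction (adjusted p under 0.05 in edgeR) with all livers and with each of the 16 livers left out, split into interactions above 0 (red) and below 0 (blue). The count runs from 0 in 12 of the fits to 122 without 3xTg KD liver 4.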

How the data were processed

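Liver polyA RNA of 24 female mice was sequenced. The authors deposited unnormalised read counts for each gene. The submitters' processing notes list Trimmomatic, STAR and GRCm38. Adapters carried molecular identifiers, per the labels' protocols. Their use in counting, and the strand direction, were not given in the sources used here. The 4 entries that name no gene held 21.5% to 30.1% of all counts in the 16 livers and were left out. Gene counts ran from 12009432 to 16174921 per liver. One edgeR 4.0.16 quasi-likelihood fit (R 4.3.3) of all 24 livers, with a mean per group, TMM scaling, filterByExpr by group and 18 residual degrees of freedom, gave each contrast, with Benjamini-Hochberg adjustment over 13281 genes at 0.05. Log2 values are relative to the median of all genes, with SE as the log2 value over the root of F. CPM per gene use TMM scaling, and library sums use raw totals. Adjusted p values of single genes come from this fit.

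Gene lists (41), the 45 tested panel genes and the rule for named genes were chosen with earlier results of these data known. The rule takes called genes, the 12 smallest p in each direction above 1 CPM, the panel, 2 members per list with the smallest p, up to 6 genes per opposite pattern, and the Arl4 family. A selection is printed. Lilrb4a is named outside it, as a paralog. Promoters are RefSeq's (GRCm38.p6). On simulated counts for the interaction, edgeR recovered 82%, 26%, 30% and 84% of 50 genes each changed by log2 2, 1, -1 and -2. Over the 13281 genes it called 7 unchanged ones, and 0 when none was changed. Whether the same shares hold for the counts of the real livers was not tested. Alternatives were RLE factors, library-size scaling, no filter, the 16 livers alone, a replicate block, omitted livers and DESeq2 1.42.0; legacy and robust fits were added after seeing the data. Over 24 pairs of replicates the chi-square of counts per gene was 27.5 to 109, far above the 1 that sampling alone gives, so no library was counted as a duplicate. Some items are not reported here.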

Additional observations from a re-analysis of the deposited data

Results flagged for a closer look

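Arl4d is the 1 gene whose response to the KD differed between genotypes by the test of the difference itself, with an interaction of 3.42. It was not called in 12 of 16 fits with 1 liver left out, while DESeq2 called 253 genes and edgeR on the 16 livers alone 55. Transcripts of the exocrine pancreas also appeared in livers outside the comparison, at 19796 CPM in WT liver 3, 3318 in 3xTg liver 3 and 10024 in 3xTg liver 4 of the medium-chain triglyceride diet, against at most 33.2 in control livers.

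In 24 of 352 groups of 4 livers, 1 liver stood apart from the other 3 by a gap that took up most of the group's range (Dixon's 95% limit). Chance gives about 1 in 20. WT control liver 4 was the highest of its group for 3.12 (Rgs1), 16.04 (Nars2), 1.75 (S100a9), 92.97 (Ndufb5) and 644 CPM (Bhmt). WT KD liver 4 had the highest TMM factor (1.08) and erythroid sum (329 CPM), the lowest mitochondrial share (8.80%) and the lowest Apoh (2392 CPM). WT KD liver 1 was highest for Rgs1 (1.73 CPM), and WT KD liver 3 was highest for Med29 (6.05 CPM) and lowest for Ppara (185 CPM). WT control liver 2 was highest in its group for the hepatocyte sum (209010.0 CPM) and the skeletal muscle sum (23.3 CPM). The skeletal muscle sum was higher still in WT KD livers 1 and 4 (100.2 and 191.7 CPM), which a rule for 1 liver standing apart does not flag.

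Among 3xTg control livers, liver 1 was highest for Slco1a1, a transporter of organic anions (140.2 CPM), and for the skeletal muscle sum (38.8 CPM), liver 3 for Nars2 (11.5 CPM), and liver 4 for Xist (228 CPM with TMM scaling and 253 with raw totals). Among 3xTg KD livers, liver 1 was highest for Scd1 (6893 CPM) and Glrx3 (41.1 CPM), liver 3 for Elovl3 (24.2 CPM) and Nr1i3 (215 CPM), and liver 4 for the skeletal muscle sum (223 CPM).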

How the results depend on the processing

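The interaction called 1 gene in the reported fit and 1 with RLE factors. It called 7 with no expression filter, 55 with the 16 livers alone, 985 with library-size scaling, 253 with DESeq2 and 2 with the robust quasi-likelihood fit, and 0 without 3xTg KD livers 2 and 3 or without WT control livers 3 and 4 (1250 and 1027 genes with an unadjusted p under 0.05). Leaving out 1 liver gave 0 to 122. The WT response (86 genes) gave 221 with the 16 livers alone, 266 with DESeq2, 53 with the legacy fit, 4 without the libraries with pancreas transcripts, 53 without 3xTg KD livers 2 and 3, 1 without WT control livers 3 and 4, and 13 to 85 with 1 liver left out. The 3xTg response (716) gave 1762 with library-size scaling, 75 without 3xTg KD livers 2 and 3, and 270 to 879 with 1 liver left out. Oppositely separated genes numbered 158 in place of 38 with library-size scaling. The cause of each change was not tested.

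Signs changed for 7 printed genes, none of them called in the interaction. Without the libraries with pancreas transcripts Ppara was at 0.0654, Elovl3 at -0.0162, Pnpla3 at -0.72 and Scd1 at -0.28. Without 3xTg KD livers 2 and 3 Ppara was at 0.0528, Elovl3 at -0.0242 and Arl4c at -0.59, and without WT control livers 3 and 4 Pnpla3 was at -0.70. With 1 liver left out the interaction ran -0.15 to 0.0424 for Ppara, -0.23 to 0.87 for Elovl3, -0.0271 to 0.22 for Pex11a, -0.12 to 0.999 for Pnpla3, -0.49 to 0.48 for Scd1, -0.15 to 0.26 for Cyp4a10 and -0.16 to 0.28 for Arl4c.

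With the replicate number as a block the interaction called 9 genes (6 above 0 and 3 below), and Cyp4a10 was at -0.0487. Of 24 same-numbered pairs, 9 had deviations correlated over 0.1 (r from -0.128 to 0.453). Livers of different numbers were not compared, so whether the numbers pair the mice or only name them was not tested. Depth was 12009432 gene counts or more per liver, and genes near 1 CPM, such as Rgs1 in control livers, rest on few reads.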

Other observations

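Slco1a1, a transporter of organic anions, had the most negative interaction among the genes printed here, -10.11 ± 2.88 (adjusted p = 0.117 in edgeR). It was at 140.2, 0.304, 1.95 and 0.278 CPM in 3xTg control livers and 0, 0.300, 0 and 0.0629 in 3xTg KD livers, and between 0.338 and 1.77 in all WT livers. In the other livers it was at 1.95 CPM or less, and in the 3xTg KD livers its level is that of a few reads at most. Without 3xTg control liver 1 the interaction was -4.72.

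Of the 41 gene lists, 1 had a member called in the interaction, the ARF-like GTPases with Arl4d, and 8 had no member with an unadjusted p under 0.05. The lists were chosen with earlier results of these data known, so these counts are a description.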
